A study of Mus musculus with 2 samples.

Results

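Complement is the plasma and cell-surface protein system that tags particles and cells for removal, attracts leukocytes and can perforate membranes. Described here are 34 genes of that system out of 32285 measured genes: components of each activation route, the terminal components, regulators, and receptors. They were chosen by name, and all 34 had a feature in both count tables. Expression was measured by droplet-based 10x Genomics 3′ single-cell RNA sequencing, in which each captured transcript is counted through its unique molecular identifier (UMI). The samples were liver tumors of C57BL/6J mice, profiled as 2 libraries. WT came from wild-type littermates, and FABP5 hKO (hKO) from mice in which the fatty acid binding protein gene Fabp5 was deleted in hepatocytes through Alb-CRE-ER, a Cre recombinase driven by the albumin promoter and switched on by tamoxifen. Both genotypes received tamoxifen at 6 to 8 weeks of age (100 mg/kg, 5 injections, 3 days apart, after 16 h of fasting). From 2 weeks after the last injection they ate CD-HFD, a choline-deficient high-fat diet, for 15 months. A library pooled 2 to 3 tumors, and there was 1 library per genotype. No test of genotype was therefore possible, every value describes these 2 pools, and every interval covers counting error only.

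The classical route starts when C1q binds a surface and its proteases C1r and C1s cleave C4 and C2. Mannose-binding lectins with their MASP proteases do the same in the lectin route, and factors B and D, stabilised by properdin, run the alternative route. All routes cleave C3, and C5 to C9 then form the membrane attack complex. Hepatocytes are the main source of most plasma components, macrophages are the main source of C1q, and leukocytes carry the receptors for C3 and C5 fragments. Plasma levels and cleavage were not measured here.

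The tables held 58772330 UMIs in 14289 WT barcodes and 68010317 UMIs in 18657 hKO barcodes, of which 9459 and 10402 entered the description as cells, at median depths of 3822 and 3642.5 UMIs. The libraries shared 29 barcodes among kept cells, and 73 in all. Classes were named from fixed markers, hence the suffix -like, and 11 classes had at least 100 cells in each library. Hepatocyte-like cells (346 WT, 1097 hKO) carried all 12 hepatocyte markers at 30 CPM or more in both libraries, where CPM is counts per 1000000 UMIs of the class. Macrophage-like cells (1674 WT, 1786 hKO) carried 11 of 11 macrophage markers in WT and 10 of 11 in hKO. Barcodes over the mitochondrial limit of 25% were 18.5% of WT and 36.8% of hKO. A list of 12 abundant hepatocyte genes, none of them a complement gene, was counted in T-like cells too, at 0.247% of their UMIs in the WT library and 0.589% in the other. Cells of another type can carry such transcripts as free RNA in the droplet. Fabp5 itself stood at 79 UMIs (102 CPM) in WT and 51 UMIs (13.8 CPM) in hKO hepatocyte-like cells. Its log2 ratio, hKO over WT, was −2.88 (95% interval −3.42 to −2.35). The deleted exons are not given in the sources used here, so these 3′ tags do not check the deletion.

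**Figure D1:**
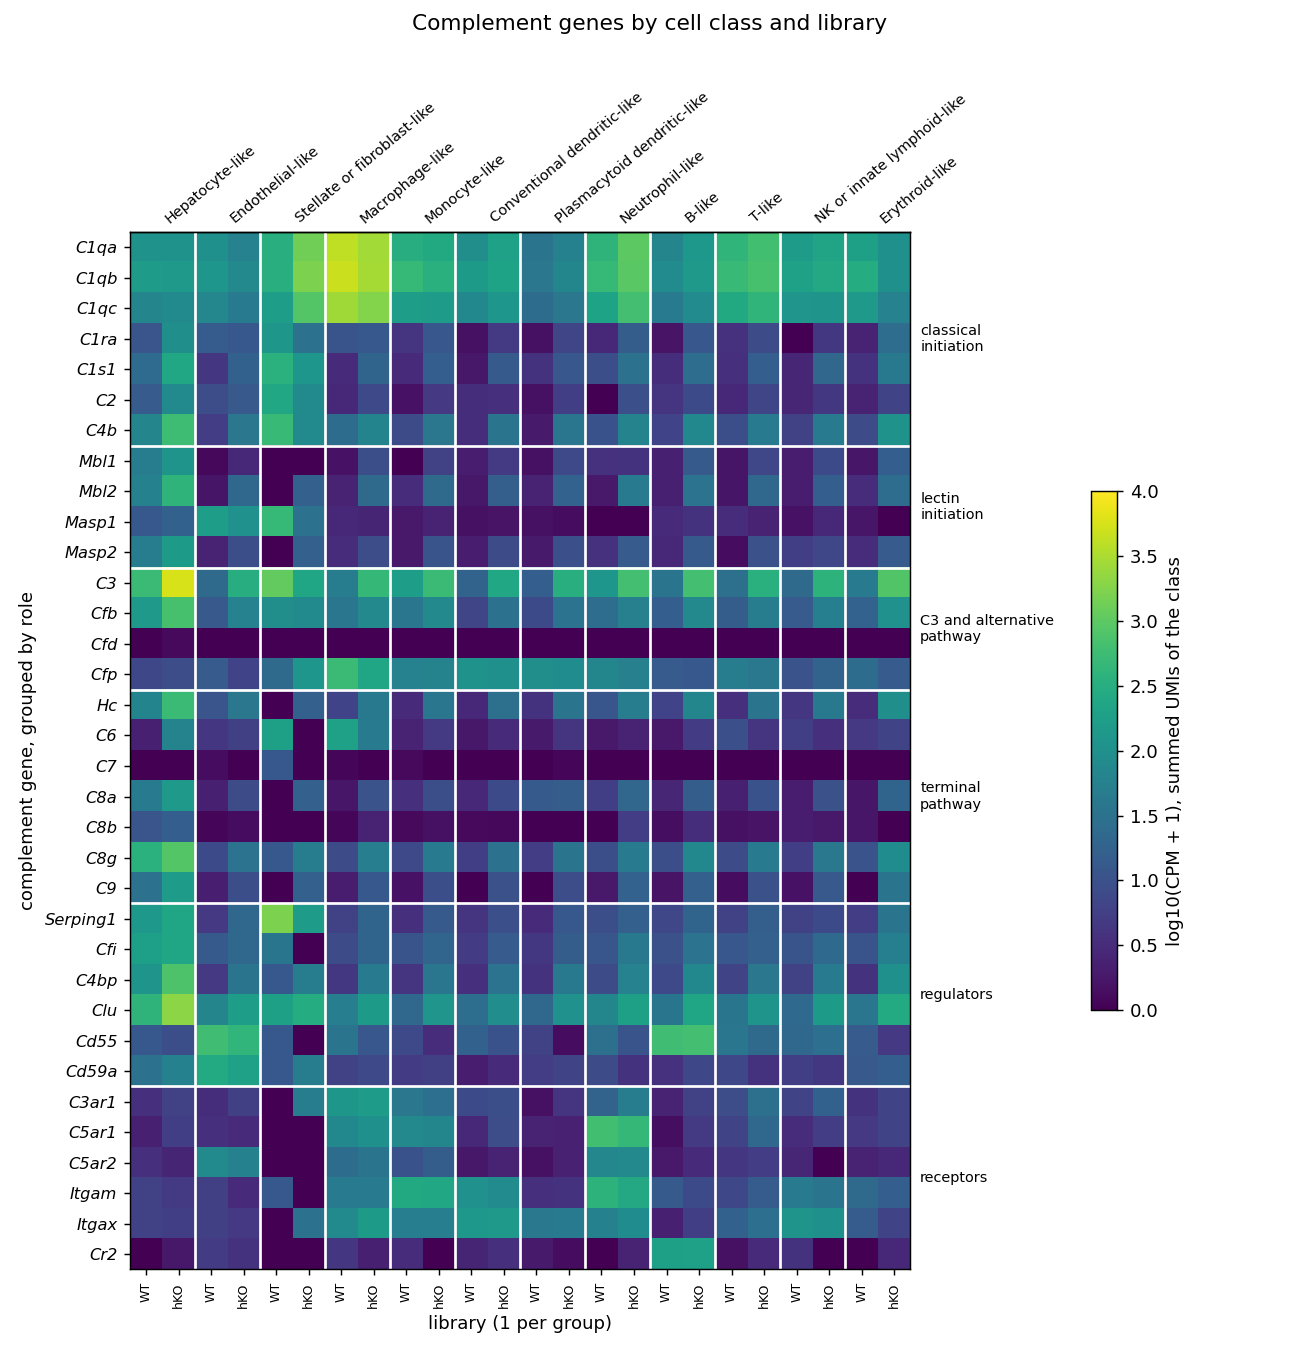
Level of each of the 34 complement genes (rows, grouped by role) in 12 cell classes of the WT and hKO libraries (columns), as log10(CPM + 1) of the summed UMIs of the class. C1qa, C1qb and C1qc are brightest in macrophage-like cells, C3 in hKO hepatocyte-like cells, Cd55 in endothelial-like and B-like cells and C5ar1 in neutrophil-like cells. The stellate or fibroblast-like columns rest on 24 WT and 14 hKO cells.

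Upstream sequences were looked up by symbol in the RefSeq promoter table (build GRCm38.p6, a later build than the mm9 named in the submitters' processing notes), and 26 of the 34 genes were in it. The 5 genes shown are examples of those described below, given as the 100 bases before the annotated start, 5′ to 3′ on the strand of the gene. Of these, 3 had their highest hKO level in hepatocyte-like cells and 2 had their highest level in macrophage-like cells. Capitals mark a match, on either strand, to the short motif GTTAAT of the hepatocyte factor HNF1 or to the core GAGGAA bound by the myeloid factor PU.1.
C3 (chr17:57228137-57228236, minus strand): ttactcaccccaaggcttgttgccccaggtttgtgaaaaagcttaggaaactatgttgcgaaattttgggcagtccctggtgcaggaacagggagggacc
Mbl2 (chr19:30232828-30232927, plus strand): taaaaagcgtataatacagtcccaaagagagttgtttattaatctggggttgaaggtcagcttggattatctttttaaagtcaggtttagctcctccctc
C4bp (chr1:130661619-130661718, minus strand): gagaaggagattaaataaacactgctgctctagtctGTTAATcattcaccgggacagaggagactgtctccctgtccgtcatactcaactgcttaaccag
C1qb (chr4:136886201-136886300, minus strand): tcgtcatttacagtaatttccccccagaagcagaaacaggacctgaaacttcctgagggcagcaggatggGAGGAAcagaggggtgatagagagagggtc
Cfp (chrX:20931556-20931655, minus strand): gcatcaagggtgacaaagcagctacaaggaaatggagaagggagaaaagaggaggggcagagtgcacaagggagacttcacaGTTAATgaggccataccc
The GTTAAT letters were present in 3 of the 26 genes (C4bp, Cfp and Hc) and in 2.51% of 32851 windows of the same length. A gene was counted if any of its windows matched, while the percentages count single windows. GAGGAA was present in 4 (C1qb, C5ar2, Cd59a and Itgam) and in 9.82% of windows. The TATA motif TATAAA was found in 1 gene (C7) and 5.56% of windows, and CCAAT in 2 (C9 and Mbl1) and 18.9%. The searched motifs do not contain each other. A match is a run of letters and shows no binding.

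Hepatocyte-like cells of the hKO library held more transcript of most secreted components than those of WT. C3 (ENSMUSG00000024164), the central component that all routes cleave, was the most abundant complement transcript there: 409 UMIs in WT and 20996 in hKO, or 526 CPM against 5678 CPM, a log2 ratio of 3.43 (3.29 to 3.58). A gene was taken to differ where a library held at least 50 CPM, the log2 ratio was 1 or more in size and its interval left out 0. By this rule of size 16 of the 34 genes were higher in hKO and 0 lower, 6 did not pass, and 12 were under the floor of 50 CPM in both libraries. Markers of other cells moved in this class too: the 8 erythroid markers summed to 34255 CPM in WT and 1612 CPM in hKO, the 8 neutrophil markers to 811 and 1521 CPM, and mitochondrial UMIs were 7.79% and 13.6%. Their part in the ratios was not tested, beyond a total without hemoglobin and mitochondrial genes given below. Among all 3008 genes at the floor in this class, 20.4% were higher and 32.0% lower. The median log2 ratio was 2.31 over the 22 complement genes at the floor and −0.52 over all genes at it. Leaving mitochondrial, ribosomal, hemoglobin and free RNA list genes out of the total, or centring on the median ratio, gave 16 and 18 complement genes higher and 0 lower. Centring moved the split over all genes from 615 higher and 962 lower to 770 and 524, after a shift of −0.40 in the median log2 ratio.

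The 2 libraries filled different clusters of this class, so each ratio sets cells of different clusters against each other. B-like cells split by library too, into cluster 5 (1288 WT and 89 hKO cells) and cluster 27 (41 and 1192). With 1 library per genotype, cell state, library and cell quality cannot be told apart in such a split. WT hepatocyte-like cells lay mainly in cluster 21 (323 WT cells, 1 hKO cell; led by Fabp1, Rgn and Akr1c18), and hKO ones in cluster 28 (292 cells; Car3, Gstp2 and Ubd) and cluster 29 (804 cells; Cyp2a5, Ugt2b5 and Mup20). Cluster 23, with both cholangiocyte and hepatocyte markers, stayed unnamed and outside the class (200 WT and 33 hKO cells). Its WT cells were deep, with a median of 16084.5 UMIs against 1310 in cluster 21, and they held the larger part of the WT transcripts of many complement genes. Of all WT UMIs in kept cells they held 89.6% of Clu, 83.2% of Masp2, 70.6% of Hc and 67.2% of C3, and over 50% for 11 of the 16 genes. The 33 hKO cells held 1.71% of the hKO UMIs of C3 and 25.5% of those of Clu. Over all kept cells, C3 stood at 150 CPM in WT and 800 CPM in hKO (log2 2.42), and Clu at 403 and 364 CPM (log2 −0.14). The 4 groups of cells are therefore given side by side.

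**Figure D2:**
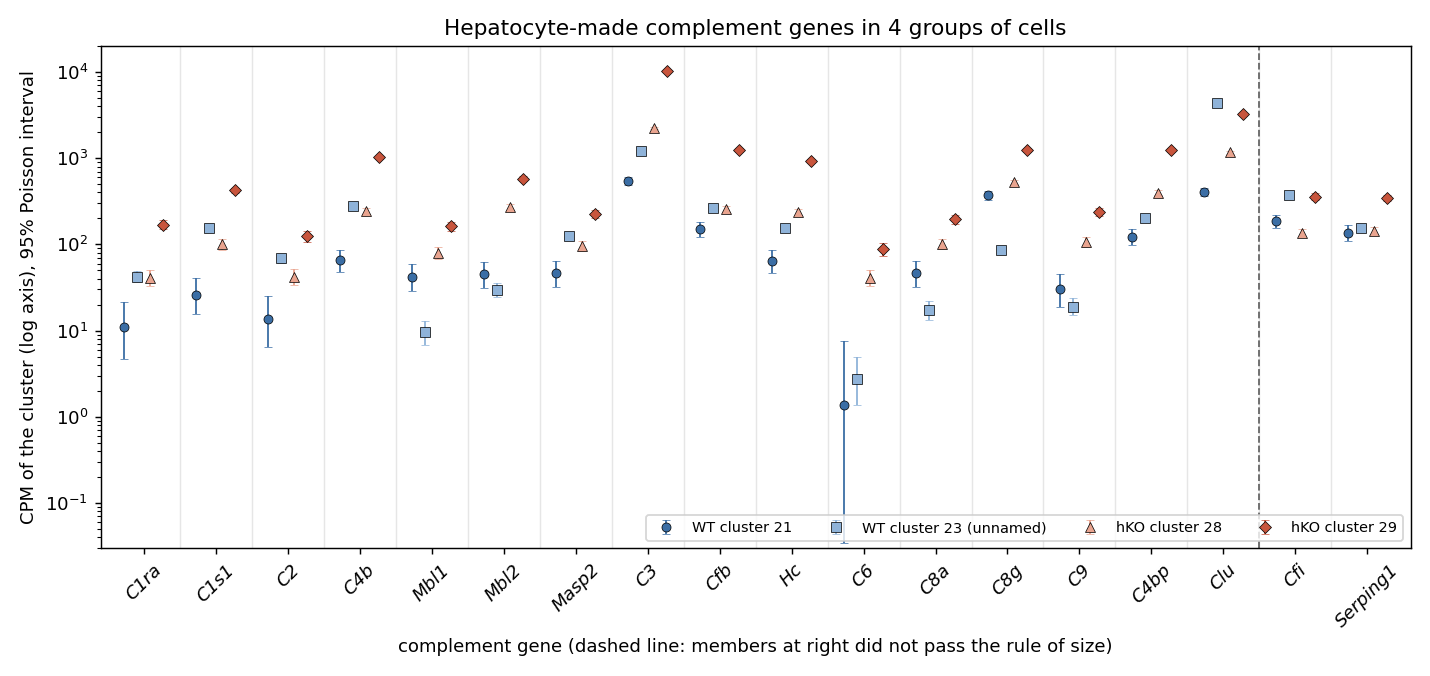
CPM on a log axis with 95% Poisson intervals for 18 complement genes in WT cluster 21 (circles), WT cluster 23 (squares, unnamed), hKO cluster 28 (triangles) and hKO cluster 29 (diamonds). Both hKO clusters lie above WT cluster 21 for all 16 genes left of the dashed line, hKO cluster 29 is highest for 15 of them, and Clu is highest in WT cluster 23.

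C3 was measured at 543 CPM in WT cluster 21, 1217 in WT cluster 23, 2243 in hKO cluster 28 and 10247 in hKO cluster 29. Both hKO clusters were above both WT groups. All 16 genes were higher in both hKO clusters than in WT cluster 21, and 9 of them were also higher in both than in WT cluster 23. Those 9 were C3, Hc, C6, C8a, C8g, C9, Mbl1, Mbl2 and C4bp. For the other 7 (C1ra, C1s1, C2, C4b, Cfb, Masp2 and Clu) WT cluster 23 reached or passed at least hKO cluster 28. A C3 UMI was found in 25.5% of the WT hepatocyte-like cells (19.8 to 31.7) and 88.3% of the hKO ones (85.8 to 90.4) once each cell was thinned to 1000 UMIs, with 126 and 297 shallower cells left out. In T-like cells, taken as background, these shares were 3.48% and 31.5%. Without thinning they were 40.2% and 95.7% of hepatocyte-like cells, at median depths of 1298.5 and 1535 UMIs, and 9.69% and 70.9% of T-like cells, at 3679.5 and 3723.5 UMIs.

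Of the classical route, the proteases and their substrates were higher in hKO. C1s1, the protease that cleaves C4 and C2, had 19 UMIs in WT and 882 in hKO (24.4 and 239 CPM, log2 3.29, 2.64 to 4.03). C1ra, which activates it, had 8 and 356 UMIs (log2 3.23). C4b, whose cleaved form attaches to surfaces, stood at 64.2 and 578 CPM (log2 3.17), and C2, which supplies the catalytic part of the classical convertase, at 12.9 and 77.1 CPM (log2 2.58). In WT cluster 23 C4b reached 282 CPM, above the 246 CPM of hKO cluster 28 and below the 1019 CPM of hKO cluster 29. The C1q chains differed little between the libraries here, with C1qa at 111.8 and 111.7 CPM (log2 −0.00) and C1qb at 162 and 141 CPM (log2 −0.20). These are levels at which macrophage markers were also present: the list of 11 summed to 252 CPM in WT and 179 CPM in hKO hepatocyte-like cells, and its part in the C1q level was not tested.

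Of the lectin route, Mbl2, a lectin that binds sugars on microbes, had 44 UMIs in WT and 1490 in hKO (56.5 and 403 CPM, log2 2.83, 2.40 to 3.30). The related lectin Mbl1 stood at 48.8 and 115 CPM (log2 1.23), and the protease Masp2 at 48.8 and 152 CPM (log2 1.64). WT cluster 23 was the lowest of the 4 groups for both lectins, at 9.52 CPM for Mbl1 and 29.6 CPM for Mbl2. For Masp2 it was not, with 124 CPM against 46.4 in WT cluster 21. Masp1, the other protease, was under the floor in this class and was found mainly in endothelial-like cells.

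Of the alternative route, Cfb (factor B), which forms the convertase with C3b, had 112 UMIs in WT and 2523 in hKO (144 and 682 CPM, log2 2.25, 1.97 to 2.53). Cfb was at similar levels in WT cluster 23 (261 CPM) and hKO cluster 28 (259 CPM) and at 1245 CPM in hKO cluster 29. Cfd, the factor D protease known as adipsin and made mainly by fat, had 0 UMIs in all kept WT cells and 1 in hKO.

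The terminal components were higher as well, 5 of the 5 at the floor. Hc, the mouse C5 gene, had 48 and 1980 UMIs (61.7 and 535 CPM, log2 3.12, 2.71 to 3.56). C6, which joins C5b, had 1 UMI in WT and 226 in hKO (1.28 and 61.1 CPM, log2 5.57), with an interval of 3.08 to 10.88 set by the single WT count. Among the C8 chains C8g was most abundant (356 and 835 CPM, log2 1.23), C8a stood at 43.7 and 142 CPM (log2 1.70), and C8b stayed under the floor at 10.3 and 14.6 CPM. C9, which polymerises into the pore, stood at 30.8 and 164 CPM (log2 2.41). In WT cluster 23 C8a, C8g and C9 stood at 17.3, 87.0 and 19.0 CPM, below their levels in WT cluster 21 (46.4 CPM for C8a and 374 CPM for C8g). C7 had 8 UMIs in all kept WT cells and 1 in hKO.

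The regulators were mixed. C4bp, which takes apart the C4b convertase, had 90 and 2822 UMIs (116 and 763 CPM, log2 2.72, 2.42 to 3.04). Clu (clusterin), a chaperone that also binds terminal complexes, stood at 396 and 2046 CPM (log2 2.37). Clu was highest in WT cluster 23, at 4365 CPM against 1170 in hKO cluster 28 and 3210 in hKO cluster 29, so its direction turned with the WT group used. The log2 ratio of the hKO class was −1.09 against WT cluster 23, and −0.34 with cluster 23 joined to the class in both libraries. The 33 hKO cells of cluster 23 held more Clu than any of these groups, at 11399.8 CPM (4484 UMIs), so inside cluster 23 Clu was higher in hKO. The cluster was not alike in the libraries: hepatocyte-list transcripts were 4.99% of its UMIs in WT and 0.92% in hKO. At a 10% mitochondrial limit Clu was among the leading genes of a cluster named from cholangiocyte markers (66 WT and 27 hKO cells). The part of cell type in the Clu values of cluster 23 was not tested. Serping1 (C1 inhibitor) stood at 134 and 230 CPM (log2 0.78), and Cfi (factor I, which cleaves C3b) at 180 and 231 CPM (log2 0.36). Neither passed. Cd59a, which blocks the pore on host cells, stood at 30.8 and 55.7 CPM (log2 0.85).

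At a 10% mitochondrial limit the cells were clustered and named again, which also altered the WT group. Of its 243 WT hepatocyte-like cells, 101 formed a cluster of their own with no hKO cell, led by Igfbp1 and Grip1 at a median of 24016 UMIs. These genes were also among the leading genes of cluster 23. Against the 154 hKO cells, 7 genes were higher and 2 lower. The share of all genes passing was not computed at this limit, so these counts have no background beside them. C3 was still higher (log2 1.85), the lower genes were Cfi (log2 −1.32) and Masp1 (log2 −2.61), and C1s1, C2, Masp2 and Clu had ratios below 0 that did not pass. C3, C8a, C9, Mbl2 and C4bp passed in each of the 15 alternatives that gave a value for this class.

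Of 27 other complement genes with a feature, 9 were at the floor in hepatocyte-like cells, 6 higher and 1 lower. Those higher in hKO included vitronectin, Vtn, which blocks pore insertion (284 and 1865 CPM, log2 2.72), and Cpn2, a carboxypeptidase N subunit that inactivates anaphylatoxins (log2 3.76). Calr (log2 2.10) and the pentraxin Crp (log2 3.13) were higher as well. The pentraxin Apcs was lower, at 319 and 141 CPM (log2 −1.18).

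Macrophage-like cells were the main named source of C1q, whose 3 chains assemble into the recognition molecule of the classical route. C1qb had 32859 UMIs in WT and 18336 in hKO (4822 and 2913 CPM), a log2 ratio of −0.73 (−0.75 to −0.70). C1qa stood at 4135 and 2746 CPM (log2 −0.59) and C1qc at 2670.3 and 1816 CPM (log2 −0.56). All 3 were below a log2 ratio of 1 in size and did not pass. Their direction was nonetheless the same under all 20 alternatives, with log2 ratios from −0.81 to −0.32. Of 12 complement genes at the floor in this class, 2 were higher and 2 lower beside C3 and Clu, which were set aside because hepatocyte-like cells held over 10 times their level. Among all 3685 genes at the floor, 3.26% were higher and 2.09% lower. Macrophage-like cells held 65.7% to 68.1% of the UMIs of each C1q chain in WT, but 44.4% to 46.6% in hKO. Unnamed clusters held 20662 C1q UMIs in WT and 29597 in hKO (2652 and 4996 CPM). Among them was cluster 16 (235 cells in WT, 483 in hKO), where macrophage markers occurred beside those of T cells. Its own C1q level is not given here. Over all kept cells the log2 ratios were −0.14 (C1qa), −0.28 (C1qb) and −0.12 (C1qc), smaller in size than in macrophage-like cells.

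The libraries also differed in which macrophage clusters they held. Cluster 17 carried all 7 markers of Kupffer cells, the resident liver macrophages (491 WT and 124 hKO cells), while cluster 6 carried 1 of them and 5 of 7 markers of lipid-associated macrophages (408 and 784 cells). Cluster 2 was shallow and carried 5 of 7 of each list (738 and 74 cells, median 926.5 UMIs in WT). Cluster 20 was shallow, led by Ccl8 and Ms4a7, and nearly confined to hKO (37 and 804 cells), with the hepatocyte gene list at 1.95% of its hKO UMIs. Many cells also lay in subclusters led by genes of another class, such as hemoglobin, hepatocyte, neutrophil or B cell genes. Without those subclusters 414 WT and 693 hKO cells were left, in which C6 (log2 −2.23) and Cfp (log2 −1.45) were lower, C4b was higher (log2 1.12) and C1qb stood at −0.79. Values are therefore given by cluster too.

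**Figure D3:**
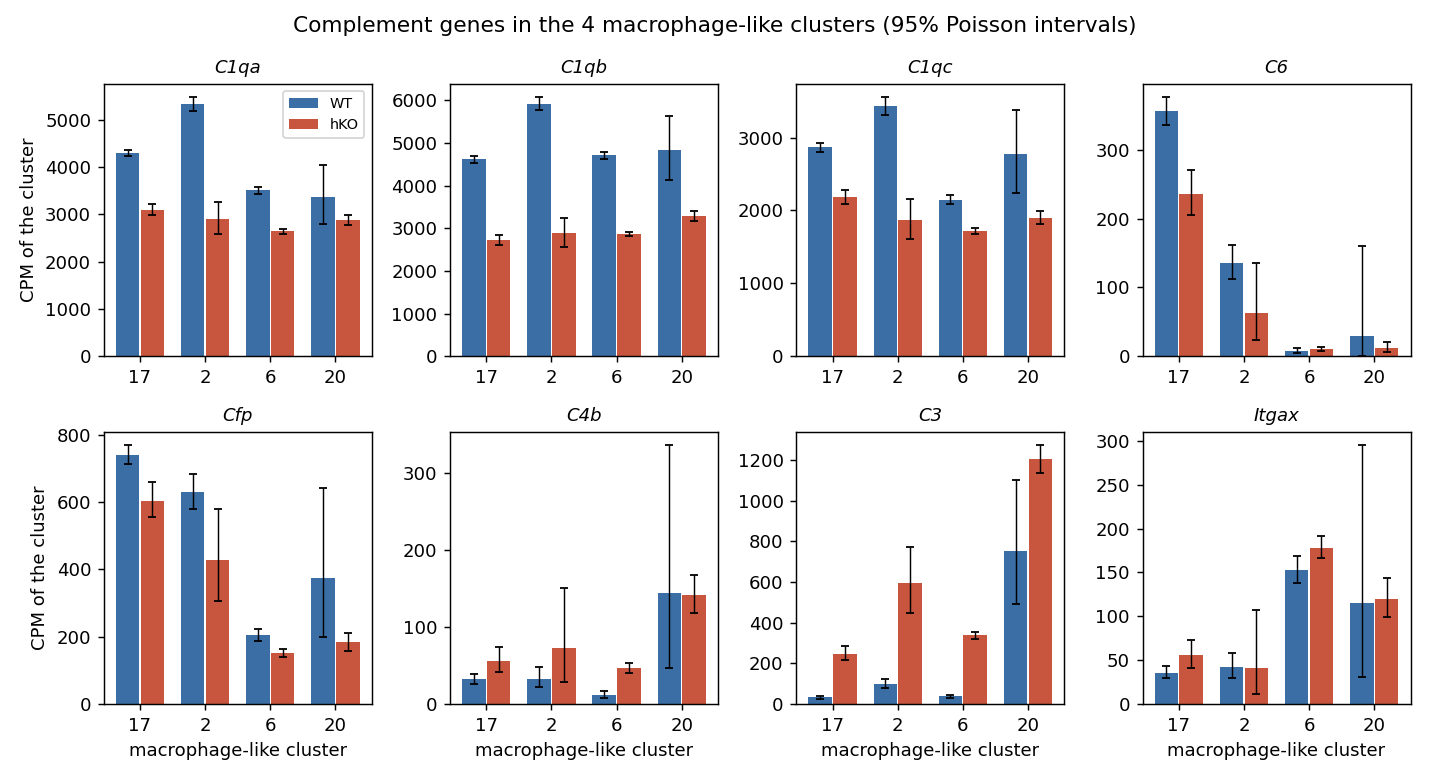
CPM with 95% Poisson intervals of 8 complement genes in the 4 macrophage-like clusters, WT and hKO side by side, on linear axes that differ between panels. All 3 C1q chains are lower in hKO in each cluster, C6 and Cfp are concentrated in clusters 17 and 2, and C3 is higher in hKO in each cluster. WT cluster 20 rests on 37 cells.

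Within cluster 17 C1qb was 4616 CPM in the WT library against 2726 CPM (log2 −0.76), C1qa at 4302 and 3103 (log2 −0.47) and C1qc at 2866 and 2179 (log2 −0.40). Within cluster 6 the log2 ratios were −0.72, −0.41 and −0.32. In the shallow cluster 2 they were −1.04, −0.88 and −0.88, on 74 hKO cells. Each chain was thus lower in hKO inside each cluster, C1qb by the most. The share of macrophage-like cells with a C1qa UMI differed little: thinned to 1000 UMIs it was 82.0% in WT and 80.8% in hKO, against 16.4% and 26.9% in T-like cells. Without thinning it was 86.6% and 85.5%, against 34.3% and 48.2%.

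C6 (ENSMUSG00000022181) UMIs lay in different cells in the libraries. In WT, macrophage-like cells held 85.0% of all C6 UMIs, at 196 CPM (1338 UMIs) against 42.9 CPM (270 UMIs) in hKO, a log2 ratio of −2.19 (−2.39 to −2.005). In hKO they held 41.8% and hepatocyte-like cells 35.0%. C6 was highest in cluster 17: it stood at 357 and 236 CPM in cluster 17 (log2 −0.59), at 135 and 62.6 CPM in cluster 2 and at 8.23 and 10.3 CPM in cluster 6 (log2 0.33, −0.45 to 1.15). Inside a cluster the difference between the libraries was thus smaller than over the class, and inside cluster 6 it had the other sign with an interval that included 0.

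Cfp (ENSMUSG00000001128) encodes properdin, which stabilises the alternative convertase. Macrophage-like cells held 3571 UMIs of it in WT and 1408 in hKO (524 and 224 CPM), a log2 ratio of −1.23 (−1.32 to −1.14). Within cluster 17 it was 741 and 605 CPM (log2 −0.29) and within cluster 6 205 and 151 CPM (log2 −0.44), so it passed in neither. No complement gene passed inside cluster 17 (background 2.46% higher, 1.17% lower) or cluster 6 (2.24% and 1.2%). Without cluster 17, and likewise without cluster 20, the class had 2 passing genes in place of 4. C4b (25.4 and 62.9 CPM, log2 1.31) and Cfb (36.1 and 76.1 CPM, log2 1.08) were the 2 higher genes. With free hepatocyte RNA subtracted, their log2 ratios were −0.002 and −0.095, and 0.88 and 0.29 with cluster 23 in the hepatocyte reference. The hepatocyte marker list summed to 2666 CPM in WT and 6219 CPM in hKO macrophage-like cells, and with its RNA subtracted C6 (log2 −2.29) and Cfp (log2 −1.17) still passed and C1qb stood at a log2 ratio of −0.67.

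Of the 27 other complement genes, 9 were at the floor in macrophage-like cells. Lower in hKO were the ficolin Fcna, a lectin-route sensor (464 and 59.6 CPM, log2 −2.96), and Vsig4, the macrophage receptor for C3 fragments (731 and 157 CPM, log2 −2.22). Within cluster 17 they stood at 748 and 313 CPM (log2 −1.26) and at 1130.3 and 871 CPM (log2 −0.38). Within cluster 6 Vsig4 was at 131 and 31.0 CPM (log2 −2.08). Cd93, once described as a C1q receptor, was higher in hKO at 54.7 and 118 CPM (log2 1.11). Vtn was higher too (log2 3.02) but was set aside as possible free hepatocyte RNA.

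Outside these classes, of 81 pairs of gene and class at the floor in 9 classes, 18 were higher in hKO by the rule and 0 lower, with others set aside as possible free RNA. Those included C1qb and C1qc in erythroid-like cells, the 2 pairs that were lower, in a class where 562 of 1124 genes at the floor, or 50%, were lower. The 18 lay in B-like cells (5 of them), erythroid-like cells (8), neutrophil-like cells (4) and monocyte-like cells (1). Of all genes at the floor, 4.89% were higher in B-like, 12.3% in erythroid-like, 11.3% in neutrophil-like and 3.79% in monocyte-like cells. In the same order 0.83%, 50%, 3.54% and 0.681% were lower. The classes with no such pair had backgrounds of 3.93% higher and 2.1% lower (endothelial-like), 3.97% and 0.48% (conventional dendritic-like), 3.73% and 0.605% (plasmacytoid dendritic-like), 4.77% and 1.18% (T-like) and 3.85% and 1.3% (NK or innate lymphoid-like). These shares over all genes set none aside. On that footing, complement genes higher at the floor numbered 8 of 12 in B-like and 8 of 11 in erythroid-like cells. They numbered 7 of 13 in neutrophil-like and 3 of 10 in monocyte-like cells. In the other classes it was 3 of 10 (endothelial-like), 3 of 8 (conventional dendritic-like) and 2 of 5 (plasmacytoid dendritic-like). It was 2 of 5 in T-like and 3 of 7 in NK or innate lymphoid-like cells. The genes of the 18 pairs were chiefly those of hepatocytes: C3, C4b, Hc, C8g, Cfb, Cfi, C4bp and Clu. The hepatocyte gene list moved with them. It made up 1.05% of UMIs in hKO B-like and 1.38% in hKO erythroid-like cells, against 0.259% and 0.237% in WT. Its part was not tested beyond the calculated C3 levels and the subtraction below, which depend on the hepatocyte reference used.

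C3 outside hepatocyte-like cells was set against the level that its own library's hepatocyte RNA would bring, taking the ratio of C3 to the 12 abundant genes in hepatocyte-like cells of that library. In hKO the measured C3 was 1.04 to 1.26 times that level in 9 classes, for example 345 against 311 CPM in T-like and 638 against 553 CPM in B-like cells. Monocyte-like cells were above it at 540.2 against 324 CPM, or 1.67 times. In WT, monocyte-like cells held 169 CPM (597 UMIs) against 10.1 CPM, or 16.7 times, and neutrophil-like cells 126 against 23.8 CPM, or 5.29 times. The other WT classes with at least 100 cells lay between 1.77 and 3.07 times, but this WT reference leaves out cluster 23. With cluster 23 joined to it, the ratio fell to 4.87 in WT monocyte-like cells and 1.54 in neutrophil-like cells, and lay between 0.518 and 0.897 in the other 8 WT classes, while hKO classes stood at 1.01 to 1.63. With free RNA subtracted, the log2 ratio of C3 in monocyte-like cells was 0.50 (0.36 to 0.65) in place of 1.68, or 0.69 (0.53 to 0.84) with cluster 23 in the reference. Over the 9 classes 4 pairs were then higher and 1 lower in place of 18 and 0, or 4 and 0 with cluster 23 in the reference.

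**Figure D4:**
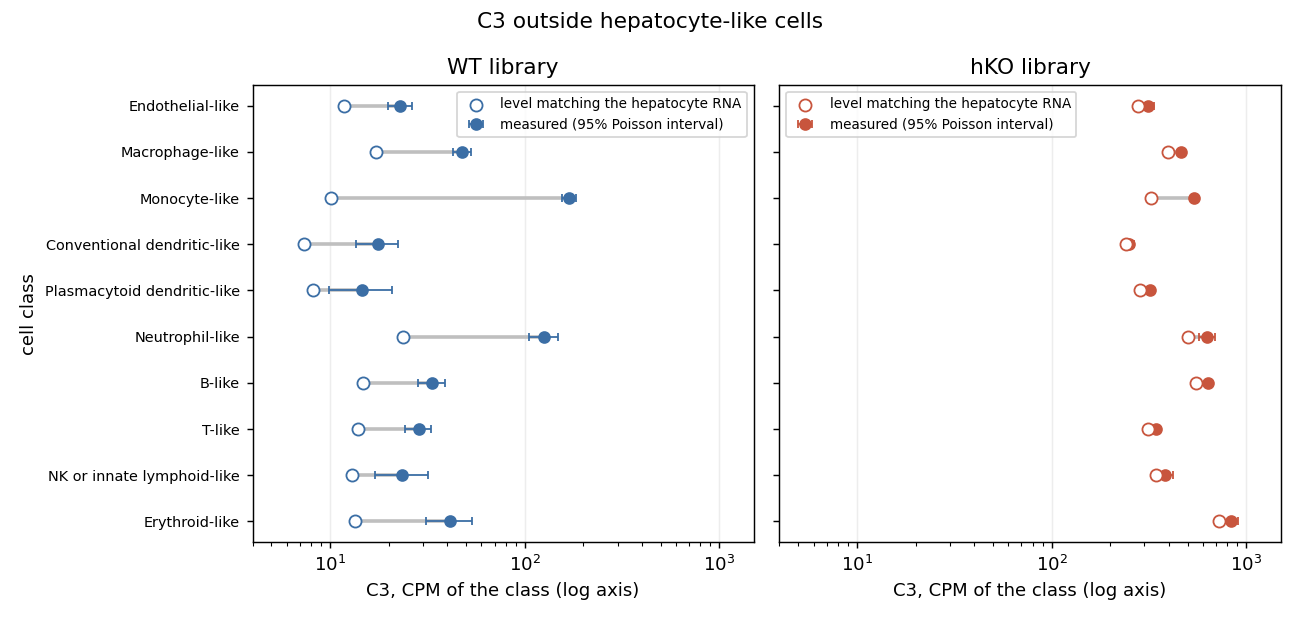
C3 in 10 classes, CPM on a log axis, WT left and hKO right: filled points are measured levels with 95% Poisson intervals, open points the level that matches the free hepatocyte RNA of the class. In hKO the points nearly coincide except in monocyte-like cells (540.2 against 324 CPM), and in WT monocyte-like (169 against 10.1 CPM) and neutrophil-like cells (126 against 23.8 CPM) stand farthest apart. The open WT points leave out cluster 23, with which they lie higher.

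C3 UMIs were found in each subcluster of the WT monocyte-like cells, at 97.4 CPM in nonclassical monocytes and from 105 to 290 CPM in the others, some of which rest on 9 to 12 UMIs. Its share of cells with a UMI, thinned to 1000 UMIs, was 17.1% of WT monocyte-like cells (14.2 to 20.2) and 3.48% of WT T-like cells (2.58 to 4.59). Those classes had median depths of 5459 and 3679.5 UMIs, and 47.1% and 9.69% of cells with a UMI before thinning.

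C1q UMIs were found in each of the other classes, at 96.2 to 1209 CPM in WT and 163 to 2536 CPM in hKO over the classes with at least 100 cells. In some classes the proportions of the chains were close to those of macrophage-like cells (35.6% C1qa and 41.5% C1qb in WT), for example 34.5% and 43.0% in WT T-like cells. In others they departed, with 32.4% and 50.3% in WT monocyte-like and 29.3% and 47.5% in WT conventional dendritic-like cells. In hKO neutrophil-like cells they were 38.4% and 36.7%, against 36.7% and 39.0% in hKO macrophage-like cells. Neutrophil-like cells of hKO passed as higher for C1qa (400.0 and 974 CPM, log2 1.28) and C1qc (206 and 632 CPM, log2 1.61), while C1qb missed the rule at 471 and 929.6 CPM (log2 0.98). The macrophage marker list moved with them in these cells, from 662 CPM in WT to 1511 CPM in hKO, and its part in the C1q values was not tested. In T-like cells C1qa stood at 417 and 614 CPM (log2 0.56), with the macrophage list at 673 and 793 CPM.

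None of the 6 receptors passed in any of the 11 classes, but few were at the floor. There were 4 in neutrophil-like, 3 each in macrophage-like and monocyte-like, and 2 in conventional dendritic-like cells. Endothelial-like, B-like and NK or innate lymphoid-like cells had 1 each, and the other classes none. Of all genes at the floor in these 7 classes, 3.26% to 11.3% were higher and 0.48% to 3.54% lower. With so few receptors at the floor, the absence of a pass says little about them. C5ar1, the receptor for the chemoattractant C5a, was highest in neutrophil-like cells (613 and 455 CPM, log2 −0.43), and stood at 76.1 and 67.4 CPM in monocyte-like and 72.5 and 99.1 CPM in macrophage-like cells. C5ar2, its second receptor, was at the floor in endothelial-like (82.3 and 55.6 CPM, log2 −0.56) and neutrophil-like cells (69.7 and 74.8 CPM, log2 0.10), whose order differed between the libraries. C3ar1, the C3a receptor, was highest in macrophage-like cells, at 132 and 161 CPM (log2 0.29). In hKO neutrophil-like cells it stood at 46.0 CPM, under the floor of 50 CPM. With free RNA subtracted it passed there (log2 1.41, on 20 and 32 UMIs).

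Itgam and Itgax encode the alpha chains of complement receptors 3 and 4, integrins that bind cleaved C3b. Itgam was highest in neutrophil-like cells (387 and 255 CPM, log2 −0.60) and monocyte-like cells (271 and 251 CPM, log2 −0.11), which in hKO did not differ beyond counting error. Conventional dendritic-like cells held 106 and 84.0 CPM, made up by the type 2 subset (227 and 201 CPM), while type 1 dendritic cells had 5.27 and 3.45 CPM. Itgax stood at 137 and 146 CPM in conventional dendritic-like, 115 and 100.0 CPM in NK or innate lymphoid-like and 57.0 and 87.8 CPM in neutrophil-like cells. Macrophage-like cells held 80.9 and 150.1 CPM (log2 0.89), but 152 and 178 CPM inside cluster 6 (log2 0.23) and 36.1 and 55.7 CPM inside cluster 17 (log2 0.63). Monocyte-like cells held 50.6 and 49.5 CPM. Cr2, the B cell receptor for C3d, was found in B-like cells at 186 and 196 CPM (log2 0.08), where 90.7% of its WT and 91.3% of its hKO UMIs lay. Thinned to 1000 UMIs, 17.4% of WT and 15.9% of hKO B-like cells had a Cr2 UMI, against 0 of WT and 0.123% of hKO T-like cells, and before thinning 34.6% and 30.8%.

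**Figure D5:**
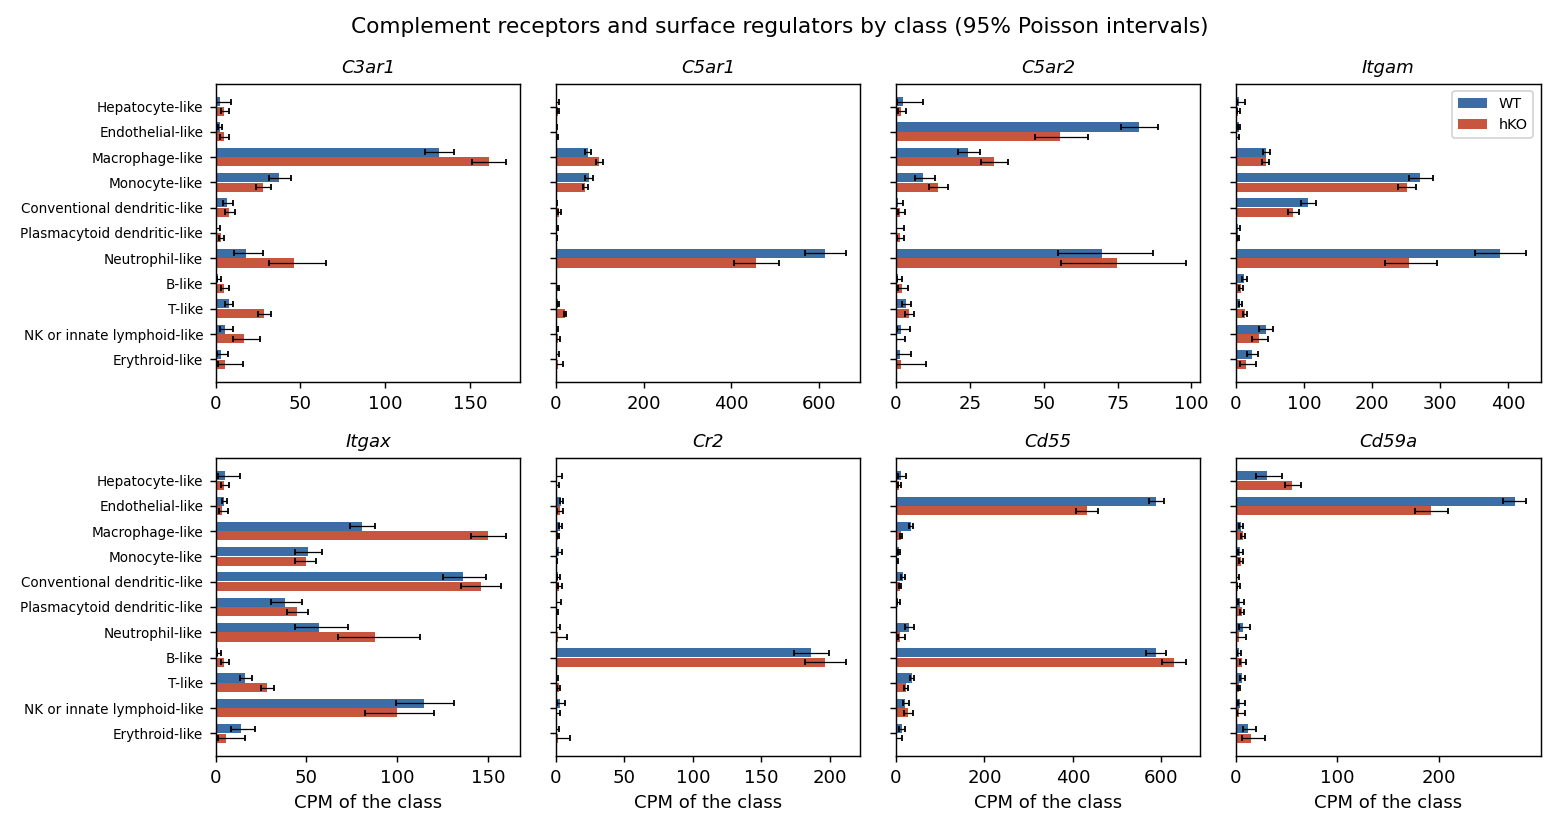
CPM with 95% Poisson intervals of the 6 receptors and of the surface regulators Cd55 and Cd59a in 11 cell classes, WT and hKO side by side, on linear axes that differ between panels. Cr2 is confined almost entirely to B-like cells, C5ar1 is highest in neutrophil-like cells, C3ar1 in macrophage-like cells, Cd59a in endothelial-like cells, and Cd55 is shared by endothelial-like and B-like cells.

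Among surface regulators, Cd55, which dissociates convertases on host cells, stood at 588 and 431 CPM in endothelial-like (log2 −0.45) and 587 and 628 CPM in B-like cells (log2 0.10). Cd59a stood at 274 and 192 CPM in endothelial-like cells (log2 −0.51). Both were closer to 0 inside the larger cluster. In cluster 10, the sinusoidal-marker cluster led by Stab2 (1035 WT and 306 hKO cells), Cd55 was 617 and 616 CPM (log2 −0.00) and Cd59a 272 and 225 CPM (log2 −0.27). In cluster 24, led by Igfbp3 and Ly6c1 (68 and 170 cells), Cd55 was at 113 and 45.5 CPM and Cd59a at 72.1 and 74.0 CPM. Masp1 stood at 169 and 104 CPM in the class (log2 −0.69), 175 and 142 CPM in cluster 10 (log2 −0.30) and 5.77 and 11.4 CPM in cluster 24, on 2 and 10 UMIs. C5ar2 stood at 88.8 and 86.1 CPM in cluster 10 (log2 −0.04). None of these 4 genes passed in cluster 10, where 1.72% of all genes at the floor were lower and 2.28% higher.

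Stellate or fibroblast-like cells were too few to compare, with 24 in WT and 14 in hKO, but in WT they held the highest level among named classes of 8 genes, 1 of which, C7, rests on a single UMI. Serping1 stood at 1625 CPM (139 UMIs) and C3 at 1076 CPM (92 UMIs) there. C4b stood at 491, Masp1 at 479, C1s1 at 362, C2 at 246 and C1ra at 129 CPM. The 3 genes that stayed under the floor in all 11 compared classes were C7, Cfd and C8b, and 115 of 374 pairs of gene and class were at the floor of 50 CPM.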

How the data were processed

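Gene by cell UMI counts were deposited by the authors for 2 libraries, made with Cell Ranger 7.1.0 per the file headers. The submitters' processing notes list R 3.0, Seurat 3 and the mm9 build; which annotation was counted is not stated there. Cell filters were a minimum of 200 genes and 500 UMIs and a mitochondrial share up to 25%, which 9853 WT and 11451 hKO barcodes passed. Scrublet marked 4.00% of WT and 0.0175% of hKO cells; the hKO call had not worked, so the top 9.16% of scores were removed there. In all, 394 and 1049 cells were removed, which left 48316789 and 48298750 UMIs.

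Counts per 10000, 2000 variable genes without the complement genes, 30 principal components, 15 neighbors and Leiden resolution 1.0 gave 29 clusters (scanpy 1.11.5, igraph 0.11.9, Python 3.11.15). A cluster was named from markers of 16 types where at least 3 were at 30 CPM and raised by a log2 ratio of 1, and 3 clusters stayed unnamed. Cluster 2 was named macrophage-like only after a rule on platelet markers was relaxed once it had been seen. Counts were summed per class, with exact Poisson intervals for levels and exact conditional binomial intervals for ratios (95%, scipy 1.17.1). A count of 0 was set to 3 for ratios where the other library had more than 3 UMIs and the direction was kept. Otherwise no ratio was given. A gene was set aside as possible free RNA where another class of its library held over 10 times its level.

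Genes named are the complement genes at the floor and those of a second complement list of 29 genes, 27 with a feature. The members, lists and markers were chosen with earlier results of these data known. The 27 other genes were counted by the same rule. Values of some genes of that list are not reported here. Alternatives covered cell filters, resolution, doublets, scaling, free RNA subtraction, floor, fold and left-out clusters. Scripts were tested on simulated data.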

Additional observations from a re-analysis of the deposited data

Results flagged for a closer look

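Barcodes over the mitochondrial limit, 2645 in WT and 6864 in hKO, entered none of the main comparisons above. They were not assigned to classes here, so each value below sums over all cell types. With barcodes up to a 50% limit included, hepatocyte-like cells numbered 71 in WT and 3563 in hKO. A shallow unnamed cluster that scored best for hepatocyte markers held 491 and 4 more. The part of cell type proportions in the values below was not tested. Per non-mitochondrial UMI, the C3 and alternative pathway genes stood at 936 CPM in WT (1449 UMIs) and 7153 CPM in hKO (38178 UMIs), a log2 ratio of 2.93. The lectin genes had a log2 ratio of 2.37 (155 and 2755 UMIs), the terminal genes 2.34 (508 and 8869 UMIs) and the regulators 1.54 (1722 and 17292 UMIs). The classical genes were at a log2 ratio of −0.51 (−0.55 to −0.47, 7675 and 18566 UMIs), and the receptors at 0.22 with an interval that included 0 (200 and 805 UMIs). C6 differed in direction between classes: it was higher in hKO hepatocyte-like cells (log2 5.57, on 1 WT UMI) and lower in hKO macrophage-like cells (log2 −2.19). With 1 library per genotype, that difference was not tested.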

How the results depend on the processing

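No paired analysis was possible because there was 1 library per genotype. Of 48 alternative counts, 31 stayed within 1.5 times the count reported. The share of all genes passing was not computed for changed cell filters, resolution or left-out clusters. In hepatocyte-like cells 16 genes became 9 at a 10% mitochondrial limit (7 higher, 2 lower) and 9 without cluster 29. In macrophage-like cells 4 became 2 at a 10% limit, 9 at a 50% limit, 2 with free hepatocyte RNA subtracted (also with cluster 23 in the reference), 7 at a log2 ratio of 0.58, 7 without cluster 6, 2 without cluster 17, 2 without cluster 20, and 0 within cluster 17 or cluster 6 alone. In the other classes 18 became 11 with at least 500 genes and 1000 UMIs per cell, 5 with subtraction, 4 with cluster 23 in its reference, 30 at a floor of 20 CPM and 38 with no floor beyond 10 UMIs. Among genes that had passed, signs turned at the 10% limit for C1s1 (−0.164), C2 (−0.197), Masp2 (−0.230) and Clu (−0.068); for Masp2 at resolution 2.0 (−0.140); for Clu with cluster 23 joined (−0.336) or in place of the WT class (−1.093); in macrophage-like cells for C4b (−0.002) and Cfb (−0.095) with subtraction, and for C6 within cluster 6 (0.331). Among genes that had not, Cfi in hepatocyte-like cells kept its sign in 8 of 15 alternatives (−1.32 at the 10% limit), C1qa in 6 and C1qb in 7, and C3ar1 in macrophage-like cells in 19 of 20 (−0.07 within cluster 6). Centring moved the split over all genes in erythroid-like cells from 138 higher and 562 lower to 180 and 323, and in NK or innate lymphoid-like cells from 151 and 51 to 188 and 28, with the majority unchanged in both; in hepatocyte-like cells it turned the majority (615 and 962 to 770 and 524). Beyond fewer cells or another floor, the cause was not tested. Hepatocyte-like cells gave no value at a 50% limit (71 WT cells), with stricter cells (16) or without cluster 21 (23). The comparisons within cluster 17, within cluster 6, with WT cluster 23 in place, with cluster 23 in the free RNA reference and per free RNA list UMI were chosen after seeing the data.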
